A study of Homo sapiens with 8 samples.

Results

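The endothelin, natriuretic peptide, oxytocin receptor and adrenomedullin genes were followed in LX-2 cells, 10 of the 16796 genes in the count files. They encode the peptides endothelin-1 (EDN1), B-type natriuretic peptide (NPPB) and adrenomedullin (ADM), the endothelin-converting enzyme ECE1, the endothelin receptors EDNRA and EDNRB, the natriuretic peptide receptors NPR1, NPR2 and NPR3, and the oxytocin receptor OXTR. The members were chosen by gene symbol with the OGTi over Control changes of these same libraries already known. Their changes are therefore given as a description, and nothing is read from how many were called. Of the 10, 8 reached the total of 10 counts over the 8 libraries that was required for fitting, as did 14895 genes in all, and EDNRA and EDNRB did not.

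LX-2 is a single human line of hepatic stellate cells (HSC), used as a model of the myofibroblastic HSC (MF-HSC) that lay down scar matrix in the liver. Cells in medium with 5% fetal bovine serum received DMSO vehicle (Control) or OSMI-1 at 50 µM (OGTi) for 24 h, with 4 libraries per group that the labels call biological replicates. OSMI-1 inhibits O-GlcNAc transferase (OGT), the enzyme that attaches O-GlcNAc to intracellular proteins, and the comparison asked which transcripts of MF-HSC change when this enzyme is blocked. The mRNA was read from both ends in strand-specific libraries, and each library held 24166756 to 28201215 counts. OGT mRNA itself was at 5636 ± 260 normalized counts in Control and 4146 ± 477 in OGTi (SD, n = 4 each), where a normalized count is a count divided by the size factor of its library. The labels name no sequencing batch.

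Endothelin-1 is made as a long precursor, which ECE1 cuts into the mature vasoconstrictor. Both endothelin receptors are G-protein-coupled receptors, and through Gq proteins and phospholipase C beta they release calcium from inside the cell, which makes activated stellate cells contract. The oxytocin receptor, best known from the uterus, uses the same Gq route. B-type natriuretic peptide, best known from the heart, relaxes vessels through NPR1, a receptor with its own guanylyl cyclase, while NPR2 is the cyclase receptor for C-type natriuretic peptide and NPR3 has no cyclase domain and clears the peptides. Adrenomedullin is a vasodilator that acts through CALCRL paired with a RAMP protein.

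Promoter sequence is shown for EDN1, OXTR and ADM, genes of 2 peptides and a receptor whose transcripts were lower in OGTi in every replicate pair. Each window runs from 250 bases before to 50 bases from the start of the canonical GENCODE v44 transcript, on hg38 and on the strand of the gene, and capitals mark TATAAA, the core of a TATA box. The windows are chr6:12290111-12290410 on the plus strand for EDN1, chr3:8769564-8769863 on the minus strand for OXTR and chr11:10304823-10305122 on the plus strand for ADM.
EDN1: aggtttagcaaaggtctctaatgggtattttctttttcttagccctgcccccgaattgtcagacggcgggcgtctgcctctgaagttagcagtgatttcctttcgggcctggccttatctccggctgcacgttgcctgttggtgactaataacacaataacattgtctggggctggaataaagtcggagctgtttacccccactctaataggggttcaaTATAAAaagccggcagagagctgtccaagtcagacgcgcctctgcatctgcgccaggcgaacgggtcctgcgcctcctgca
OXTR: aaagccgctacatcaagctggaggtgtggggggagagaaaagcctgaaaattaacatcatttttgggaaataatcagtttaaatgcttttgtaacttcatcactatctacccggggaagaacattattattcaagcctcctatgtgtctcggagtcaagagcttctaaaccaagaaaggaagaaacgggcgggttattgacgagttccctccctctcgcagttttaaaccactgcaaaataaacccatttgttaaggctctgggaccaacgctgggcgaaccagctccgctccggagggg
ADM: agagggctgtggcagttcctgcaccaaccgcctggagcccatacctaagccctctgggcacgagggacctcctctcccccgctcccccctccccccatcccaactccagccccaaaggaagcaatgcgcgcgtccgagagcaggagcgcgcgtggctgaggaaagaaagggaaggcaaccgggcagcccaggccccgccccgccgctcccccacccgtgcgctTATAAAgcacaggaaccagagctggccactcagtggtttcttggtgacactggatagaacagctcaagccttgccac
The match begins 31 bases before the start in EDN1 and 27 bases before it in ADM, and the OXTR window holds none. Windows were read for 9 of the 10 members, NPPB being the other one. On either strand, TATAAA was in 2 of the 9 and in 5.92% of the 14104 windows of genes tested. GGAATG, the core bound by TEAD factors, was in 1 of the 9 (EDNRB) and in 10.4% of all windows. The AP-1 letters TGANTCA and the cAMP response element TGACGTCA were in 0 of the 9, against 4.42% and 3.13% of all windows. Such matches describe the letters in these windows only.

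Positions below are those of the whole gene in GRCh38 (GENCODE v44), and ± is the SD over 4 libraries for levels and the SE of the model for log2 fold changes. EDN1 (chromosome 6, 12290361 to 12297194, plus strand) had 772, 762, 1073 and 836 normalized counts in Control replicates 1 to 4. In OGTi replicates 1 to 4 it had 61.2, 110.5, 75.95 and 81.1. The groups did not overlap, and the highest OGTi library lay far below the lowest Control library. The means were 861 ± 146 and 82.2 ± 20.7, a log2 fold change (log2 FC, OGTi over Control) of -3.40 ± 0.17 (SE of the DESeq2 model), which left 9.49% of the Control level. Within pairs of the same replicate number, 7.94%, 14.5%, 7.08% and 9.70% remained.

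NPPB (chromosome 1, 11857464 to 11858945, minus strand) had 313, 370.1, 399 and 238 normalized counts in the Control libraries. The OGTi libraries had 0, 28.1, 14.4 and 3.01. Every OGTi library was thus below every Control library, and the level in OGTi was close to the limit of detection, since 0 counts in replicate 1 allow up to 2.74 normalized counts (3 counts, counting error only). In all, 1291 counts stood against 46. The log2 FC was -5.79 ± 1.06, and it was -4.79 without replicate 1. With all libraries kept, it was -4.86 without the replicate block and -4.955 by edgeR with the block. The size of this change thus depends both on the library with 0 counts and on the model.

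ADM (chromosome 11, 10305073 to 10307397, plus strand) had 1085, 1346, 1151 and 1079 normalized counts in Control and 603, 825, 738 and 593 in OGTi. The ADM transcript was lower in all 4 pairs without overlap, although by far less than EDN1 or NPPB. From 1165 ± 125 in Control it went to 690 ± 112 in OGTi, a log2 FC of -0.76 ± 0.10 that left 58.9% of the Control level.

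ECE1 (chromosome 1, 21217247 to 21345572, minus strand), the enzyme that matures endothelin-1, had 12791, 13125, 12673 and 12721 normalized counts in Control and 12593, 14172, 12280 and 10894 in OGTi. The groups overlapped, and the OGTi libraries spread on both sides of the narrow Control range. The log2 FC was -0.05 ± 0.07, and the gene was not called. The transcripts of the converting enzyme and of its substrate therefore gave different values in the same libraries. Per transcript length, EDN1 stood at 0.145 to 0.212 of the level of ECE1 in Control and at 0.0122 to 0.0195 in OGTi.

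OXTR (chromosome 3, 8750381 to 8769628, minus strand) had 6786, 9318, 10617 and 8408 normalized counts in Control. In OGTi it had 1411, 2202, 2380 and 1896. No OGTi library came near the Control range, and the ratio was close to constant across the replicates, with 20.8%, 23.6%, 22.4% and 22.6% remaining in pairs 1 to 4. The means were 8782 ± 1610 and 1972 ± 424, with a log2 FC of -2.16 ± 0.07 that left 22.3%. OXTR shares its locus with CAV3 on the opposite strand, and the counting used strand.

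NPR3 (chromosome 5, 32689070 to 32791724, plus strand), the clearance receptor, had 124, 294, 407 and 227 normalized counts in Control and 62.1, 82.4, 113 and 95.2 in OGTi. The groups did not overlap, but the lowest Control library and the highest OGTi library were close together. The log2 FC was -1.50 ± 0.21, with between 27.9% and 50.2% of the Control level remaining in the 4 pairs.

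NPR2 (chromosome 9, 35791003 to 35809732, plus strand), the cyclase receptor for C-type natriuretic peptide, had 95.5, 97.7, 73.55 and 83.2 normalized counts in Control and 87.7, 74.3, 78.8 and 55.1 in OGTi. These ranges overlapped, and with a log2 FC of -0.25 ± 0.26 the gene was not called. NPR1 (chromosome 1, 153678688 to 153693992, plus strand), the cyclase receptor for B-type natriuretic peptide, had 17.5, 9.39, 18.4 and 13.5 in Control and 30.2, 25.1, 20.2 and 22.04 in OGTi. NPR1 was the one member whose OGTi libraries all lay above its Control libraries, with a log2 FC of 0.75 ± 0.52, and it was not called at these low counts.

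EDNRA (chromosome 4, 147480917 to 147544954, plus strand) had 0 counts in 7 libraries and 3 counts in Control replicate 4. EDNRB (chromosome 13, 77895481 to 77975529, minus strand) had 0 counts in 7 libraries and 1 count in OGTi replicate 3. Neither endothelin receptor was therefore above the level that 0 counts allow in any library, which is 2.74 to 3.45 normalized counts (3 counts), and a difference between groups was not detectable at this depth.

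**Figure D1:**
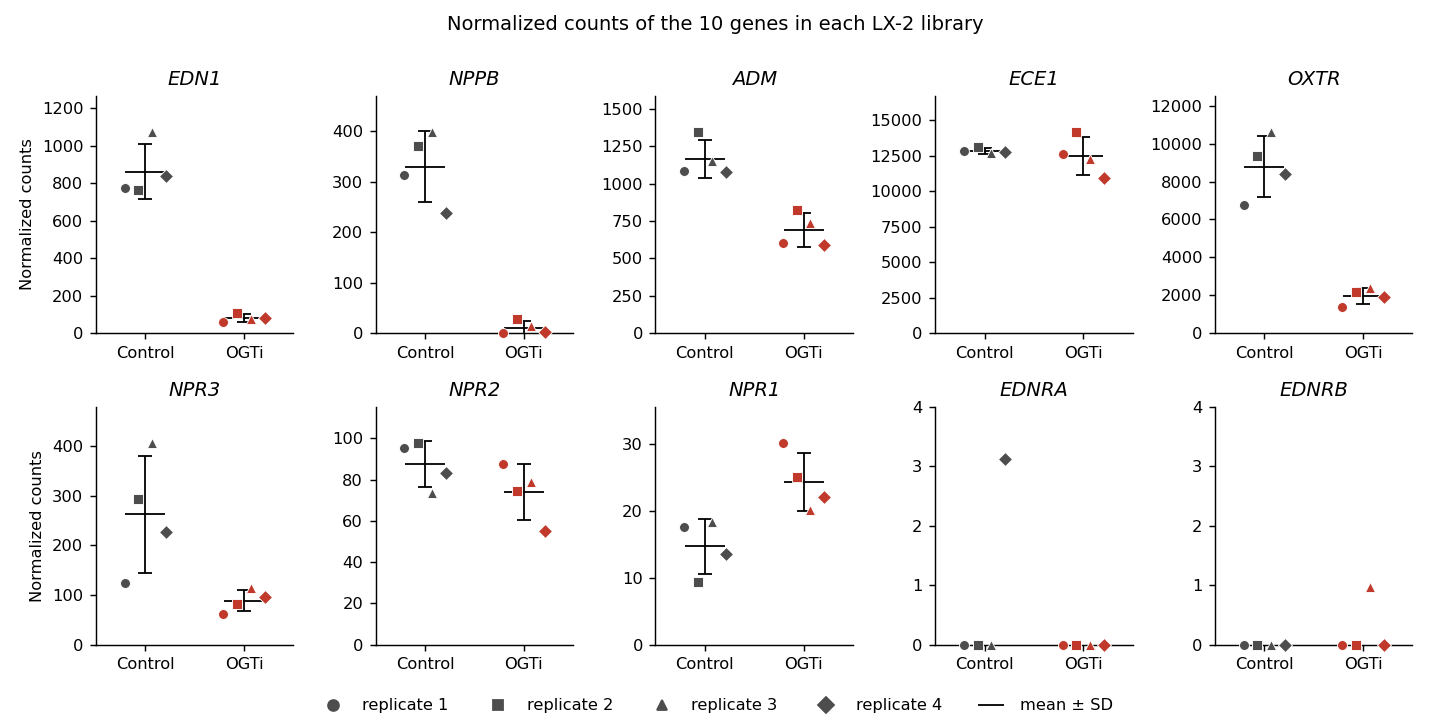
Normalized counts (vertical axis, from 0, a scale of its own for each gene) of the 10 genes in 4 Control libraries (grey) and 4 OGTi libraries (red), with a symbol for each replicate number and, for the 8 genes that were fitted, the group mean ± SD. EDN1, NPPB, ADM, OXTR and NPR3 have all OGTi points below all Control points, NPR1 has them above, and EDNRA and EDNRB hold 3 counts and 1 count.

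A gene was called when its q (DESeq2 Wald test with the replicate number as a block, Benjamini-Hochberg over all genes) was 0.05 or lower. Of the 8 members fitted, 5 were called lower (EDN1, NPPB, NPR3, OXTR and ADM), where 24.0% of the 14028 genes with a q were called lower. DESeq2 called 0 of the 8 higher, where 22.7% of those genes were, and 0 were higher at an unadjusted p under 0.05 or by edgeR. The same 5 genes had all OGTi libraries below all Control libraries, as did 19.2% of the 14895 genes fitted. NPR1 had them above, as did 18.8%. The members were selected on this contrast, so nothing is read from these counts. Bulk libraries cannot tell fewer cells of a type from less RNA per cell.

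**Figure D2:**
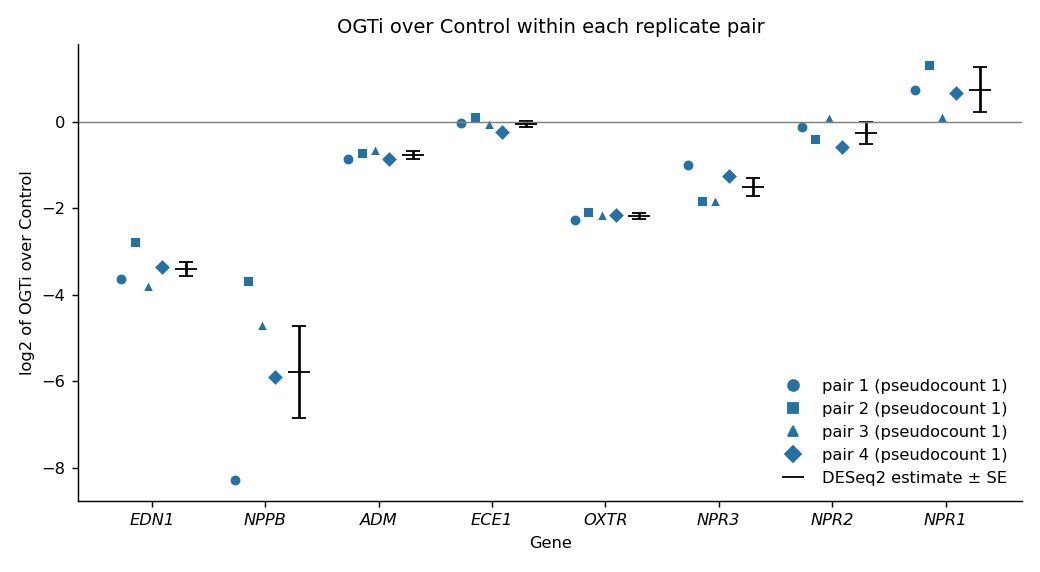
The log2 ratio of OGTi over Control (vertical axis, with a pseudocount of 1) in each of the 4 replicate pairs (blue symbols) for the 8 genes that were fitted, beside the DESeq2 estimate ± SE (black). The OXTR pairs lie between -2.27 and -2.08, while the NPPB pairs spread from -8.29 to -3.67, the lowest being the pair whose OGTi library has 0 counts.

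**Figure D3:**
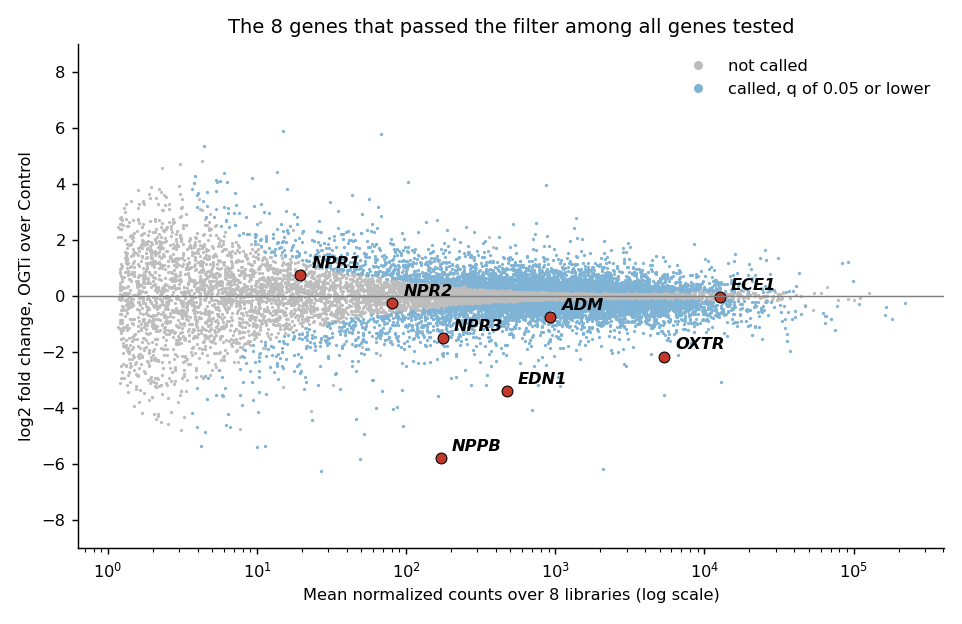
The log2 FC (vertical axis) of every gene fitted against its mean normalized count over 8 libraries (horizontal axis, log scale), with called genes in blue, other genes in grey and the 8 members in red. NPPB (-5.79), EDN1 (-3.40) and OXTR (-2.16) lie well below the bulk of genes of like abundance, and ECE1 (-0.05) lies on the zero line.

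Levels of different genes were compared as counts per kilobase of the longest annotated transcript, scaled to the same total per library, in the manner of TPM values. On this scale ECE1 was highest in Control at 316 ± 8.48, followed by OXTR at 252 ± 48.3. The range of OXTR (193 to 306) ended just below that of ECE1 (308 to 328) and lay above that of every other member, and 95.5% of the genes with a length were lower than OXTR. The transcripts of the 3 peptides formed the next group, with ADM at 77.5 ± 9.31, NPPB at 58.6 ± 13.2 and EDN1 at 53.1 ± 9.19. ADM and NPPB overlapped, as did NPPB and EDN1. The natriuretic peptide receptor transcripts lay well below those of the peptides, with NPR3 at 4.44 ± 2.04, NPR2 at 2.33 ± 0.31 and NPR1 at 0.441 ± 0.123. Of these neighbours NPR3 and NPR2 overlapped while NPR2 and NPR1 did not. In OGTi, ECE1 remained at 318 ± 27 and OXTR was at 58.5 ± 12.2, ADM at 47.4 ± 6.74, EDN1 at 5.24 ± 1.23 and NPPB at 2.06 ± 2.28. The order of the Control means was identical with the mean transcript length in place of the longest. Without any length, on the CPM scale, which does not compare genes, EDN1 (31.8) stood above NPPB (12.2).

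**Figure D4:**
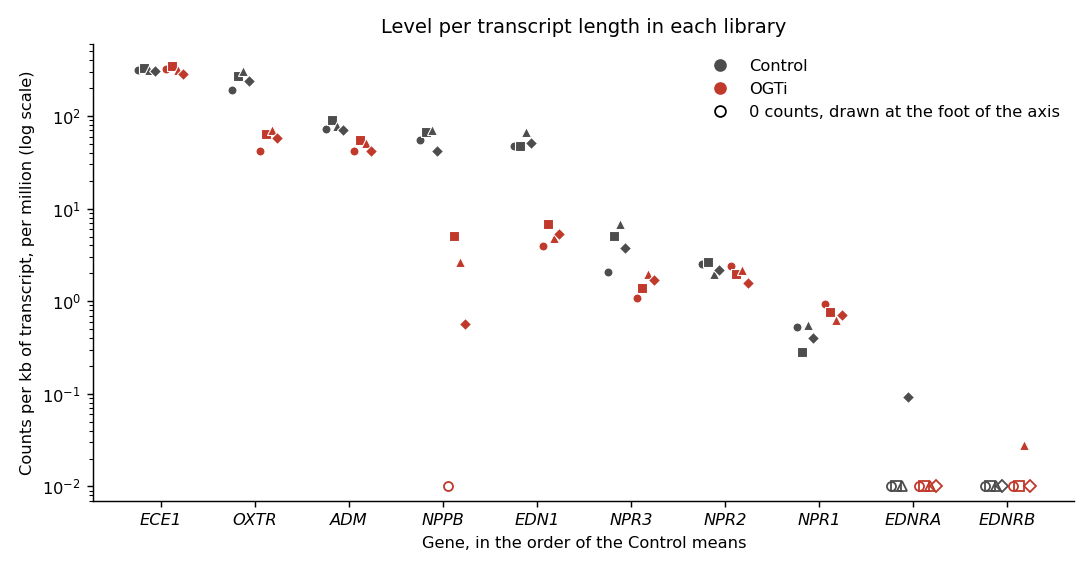
Level per transcript length (counts per kilobase scaled to the same total per library, vertical axis, log scale) of the 10 genes in each Control (grey) and OGTi (red) library, in the order of the Control means, with a symbol for each replicate as in the plot of normalized counts. Open symbols at the foot of the axis stand for libraries with 0 counts, and the Control means run from 316 for ECE1 to 0 for EDNRB.

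The makeup of the natriuretic peptide receptor transcripts differed between the groups as a description of the values above. NPR3 made up 59.0% ± 13.7 of the summed level of NPR1, NPR2 and NPR3 in Control and 35.6% ± 8.5 in OGTi, with ranges that overlapped. The share of NPR1 was 6.5% ± 2.7 and 17.6% ± 3.3, and its ranges, 3.6% to 10.2% and 13.1% to 21.1%, did not overlap. NPR1 itself had only 10 to 33 counts per library and was not called. Its share also depends on the levels of NPR2 and NPR3 in the sum, and NPR3 was lower in OGTi. NPR2 held the remaining 34.4% and 46.8%.

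Within a group, OXTR and NPR3 shared the order of their extreme libraries. Replicate 1 was lowest and replicate 3 highest for both genes in both groups, at log2 deviations from the group mean of -0.35 and 0.29 for OXTR in Control, -0.46 and 0.30 for OXTR in OGTi, -0.96 and 0.75 for NPR3 in Control, and -0.47 and 0.39 for NPR3 in OGTi. The values of 1 library come from the same cells and share its depth. EDN1 was highest in replicate 3 in Control and in replicate 2 in OGTi, and so did not keep its order. NPR3 had the widest relative spread of the called members in Control, with an SD of 45.2% of its mean against 10.7% for ADM.

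The genes whose profile over the 8 libraries lay closest to that of EDN1, by the Euclidean distance of centred log2 normalized counts among 10934 genes with a mean of at least 100, were TGFB2 at a distance of 0.533, ADAMTS5 at 0.746, IL7R at 0.789, RTL3 at 0.92 and TENM2 at 1.33. TGFB2, the ligand TGF-beta 2, went from a mean of 9884 to 863 normalized counts. The closest profiles to OXTR were TLL1 at 0.422, CACNG4 at 0.474, FAM69B at 0.509, GFRA1 at 0.516 and ILDR2 at 0.565. TLL1, a procollagen-processing proteinase, went from a mean of 2178 to 589, and GFRA1, a receptor for GDNF, from 7037 to 1662. The distance mostly reflects the difference between the groups, and nothing is said of shared control.

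Beyond the members, 42 genes of the same pathways were listed from general knowledge, of which 35 could be analysed, 26 were fitted and 21 received a q. Of these, 7 fell and 5 rose, where 46.6% of all genes with a q were called. The median log2 FC of the 26 was -0.21, beside 0.0045 over all genes fitted. With 27 receptors for other vasoactive signals, listed for context, the count came to 15 lower and 8 higher of 41 with a q. Adjusted p-values below are q values of the DESeq2 fit over all genes.

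In the endothelin list, the ligand EDN2 was almost silent, with 2 counts over the 8 libraries, and the ligand EDN3 was not analysed here. Of the 10 genes tested, which were signalling genes below the receptors and the peptidases MME and KEL, 4 rose and 3 fell, with a median log2 FC of 0.05. Of all genes with a q, 22.7% rose and 24.0% fell. ITPR1, a calcium channel opened by inositol trisphosphate, had 112, 154, 141 and 187 normalized counts in Control and 862, 990.4, 808 and 884 in OGTi. All OGTi libraries of ITPR1 thus lay above all Control libraries, with a log2 FC of 2.59 ± 0.14 (q = 1.09e-73). Its relatives ITPR2 (0.81 ± 0.10, q = 2.71e-14) and ITPR3 (0.40 ± 0.08, q = 7.96e-06) also rose, as did PLCB3 (0.23 ± 0.07, q = 0.00152), a phospholipase C beta. Another phospholipase, PLCB4, fell (-0.63 ± 0.09, q = 1.90e-10), as did PLCB2, which had a mean of 23.1 in Control and 4.11 in OGTi (q = 0.00105). GNAQ, the Gq subunit itself, fell by 0.27 ± 0.08 (q = 0.00415), a call that was lost without replicate 2, without replicate 3 and with edgeR without the block. GNA11, its close relative, had a log2 FC of -0.07 ± 0.07 (q = 0.416), and MME, a peptidase that degrades endothelin and natriuretic peptides, had 0.17 ± 0.08 (q = 0.06).

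In the natriuretic peptide list, 1 gene fell and 1 rose of 8 tested (6 with a q), where 24.0% of all genes with a q fell and 22.7% rose. The median log2 FC was 0.02. Beside NPPB, the C-type peptide NPPC had 26 counts in all, and NPPA was not analysed here. CORIN, which cuts natriuretic peptide precursors, had 10 counts over the 8 libraries. FURIN, another proteinase that cuts them, fell from 5453 ± 468 to 4405 ± 315 normalized counts (log2 FC -0.31 ± 0.07, q = 6.68e-05). IDE, an enzyme that degrades natriuretic peptides, rose from 945 ± 110 to 1237 ± 195 (0.38 ± 0.09, q = 0.000182). Downstream of the cyclase receptors, the cGMP-dependent kinase PRKG1 had 68 counts in all, and VASP, a substrate of that kinase, had a log2 FC of -0.08 ± 0.08 (q = 0.442).

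In the oxytocin and vasopressin list, the relatives of OXTR were almost silent. The vasopressin gene AVP and its receptors AVPR1A, AVPR1B and AVPR2 had 4, 15, 1 and 14 counts over the 8 libraries, and OXT, the ligand, was not analysed here. LNPEP, the aminopeptidase that degrades oxytocin, had a log2 FC of -0.16 ± 0.13 (q = 0.298). Of 5 genes tested (3 with a q), GNAQ was the 1 called (lower), and 0 rose by DESeq2, by edgeR or at an unadjusted p under 0.05. The median log2 FC of the 5 was -0.27, which includes AVPR1A (-2.37) and AVPR2 (-3.01), both without a q at their low counts. Among all genes with a q, 24.0% fell and 22.7% rose.

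In the adrenomedullin list, 3 genes fell and 0 rose of 6 tested (5 with a q), where 24.0% of all genes with a q fell and 22.7% rose. The median log2 FC was -0.58. The count of 0 was the same by edgeR and at an unadjusted p under 0.05. CALCRL, the signalling receptor for ADM, had 10 counts over the 8 libraries, and RAMP3 was not analysed here. RAMP2, the partner of CALCRL, had means of 63.8 ± 12.1 and 39.1 ± 20.5 normalized counts (log2 FC -0.80 ± 0.35, q = 0.0469), a call that was lost without any 1 of the 4 replicates and without the block. ACKR3, a scavenger receptor that also takes up adrenomedullin, had 504, 655, 646 and 699 normalized counts in Control and 57.6, 98.4, 154 and 159 in OGTi. It was the most strongly lowered gene of the list (-2.49 ± 0.18, q = 2.72e-43), and its groups did not overlap. PAM, the enzyme that amidates the end of adrenomedullin and oxytocin, fell by 0.35 ± 0.08 (q = 9.03e-05).

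Other receptors for vasoactive signals were listed for context, and of 22 tested (20 with a q) 8 fell and 3 rose, with a median log2 FC of -0.25. The shares over all genes with a q were 24.0% and 22.7%. F2R, the thrombin receptor, had 2601, 3122, 3812 and 3875 normalized counts in Control and 1041, 1054, 1397 and 1431 in OGTi (-1.44 ± 0.08, q = 1.80e-71). The muscarinic receptor CHRM2 fell from 170 ± 37.7 to 30.5 ± 10.4 (-2.49 ± 0.27, q = 2.91e-18) and CHRM3 from 455 ± 120 to 200.2 ± 27.3 (-1.16 ± 0.18, q = 1.08e-09). The alpha-1 adrenergic receptors ADRA1B (-1.21 ± 0.20, q = 1.08e-08) and ADRA1D (-1.63 ± 0.28, q = 5.35e-08) fell as well. F2RL1 (-0.73), LPAR1 (-0.34) and ADORA1 (-0.59) were the other receptors that fell, with q values of 3.47e-05, 0.000999 and 0.00761. S1PR3 (0.76), PTGER4 (0.49) and PTGIR (0.49) rose, with q values of 3.55e-05, 0.000982 and 0.0104. The calls of ADORA1 and PTGIR were each lost when single replicates were left out. The angiotensin receptor AGTR1 had 23 counts over the 8 libraries, and the bradykinin receptor BDKRB1 had 1.

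**Figure D5:**
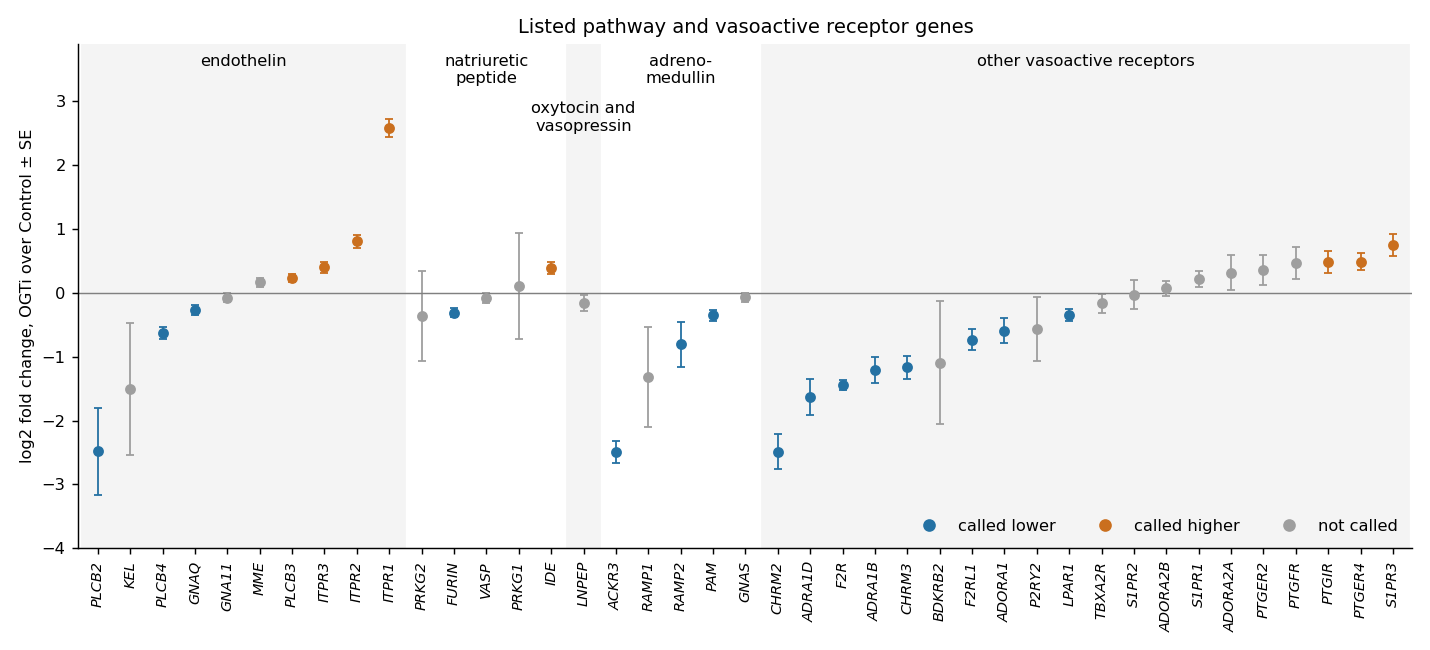
The log2 FC ± SE (vertical axis) of the 41 listed genes that received a q, grouped by list, with genes shared by lists drawn once, and coloured by call (blue lower, orange higher, grey not called). ITPR1 (2.59) is the highest point, and ACKR3, CHRM2 and PLCB2 are the lowest at about -2.49, -2.49 and -2.48.

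Markers of the labelled cell were present and most were lower in OGTi. Of 12 stellate cell or myofibroblast markers (10 with a q), 9 fell, where 24.0% of all genes with a q fell and 22.7% rose, among them COL1A1 (-0.95 ± 0.07, q = 1.15e-36) and ACTA2 (-1.75 ± 0.16, q = 3.45e-27), and TIMP1 rose. Their summed level was 142000 to 165000 normalized counts in Control and 81000 to 97300 in OGTi, while DES and LRAT had 20 and 13 counts in all. EDN1 and NPPB are best known from other cells. Of 10 endothelial markers, 8 were tested, 3 fell (CDH5, TEK and ROBO4) and TIE1 rose, with summed levels of 3460 to 4550 in Control and 4240 to 5740 in OGTi, most of it TIE1 and EGFL7. Over the 8 libraries, KDR, PECAM1 and TEK had 9, 36 and 83 counts. CDH5, VWF, ESAM and ROBO4 had 162, 186, 330 and 971, and TIE1 and EGFL7 had 12523 and 21571. CLDN5 was not analysed here. Of 8 cardiomyocyte markers, 3 were tested (2 with a q) and RYR2 fell, with sums of 53.0 to 131 in Control and 15.0 to 28.1 in OGTi. MYH6, MYH7 and TNNT2 had 6, 7 and 5 counts in all, and TNNI3, ACTN2 and RYR2 had 10, 32 and 367. Hepatocyte markers summed to 47.1 to 105 and 201 to 299, with CYP2E1 called higher of 3 tested and ALB not analysed here. Macrophage or leukocyte markers summed to 73.5 to 115 and 55.1 to 121 with 0 of 4 called by DESeq2, by edgeR or at an unadjusted p under 0.05, and cholangiocyte markers to 681 to 1150 and 955 to 1270 with KRT7 lower and SOX9 higher. The part of these markers in the results for EDN1, NPPB and the receptors was not tested.

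A list of genes linked to chromatin regions that lost the active histone mark H3K27ac under OSMI-1, made from other LX-2 samples, holds the names of EDN1, NPPB, NPR3 and OXTR. That is 4 of the 8 members fitted, beside 7.18% of the 14895 genes fitted and 14.3% of the 3360 genes called lower, and the members were picked as changed. Of the 5 called members only ADM is not on it. Among the genes most changed when OGT was silenced in LX-2 cells, again in other samples, 0 of the 10 members appear in either direction, beside 3.35% of the genes fitted for those lowered and 3.36% for those raised. These lists hold at most 500 names each, and silencing by siRNA lasted longer than the 24 h of OSMI-1 here. Absence from these lists therefore does not show that a gene was unchanged. Among the genes most changed by OSMI-1 in mouse stellate cells, NPR3 is on the list of those lowered and NPPB on the list of those raised, the opposite of its direction here, beside 2.73% and 2.56% of the genes fitted. Of the gene signatures used by the study, EDN1 is on that of fibrogenic MF-HSC and on that of myofibroblast identity, beside 0.933% and 0.839% of the genes fitted. The signatures of the liver fibrosis matrisome, of liver fibrosis and of heart, kidney and lung fibrosis hold 0 members. These memberships are names only and were read with the choice of members already made.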

How the data were processed

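The authors aligned paired reads to hg38 with Bowtie2 2.3.5.1 and counted them per gene and strand with RSEM 1.3.1, and the deposited files, 1 per library, hold expected counts (estimated counts, not scaled for depth). Their comparison table (means, log2 fold changes, standard errors, statistics, p-values) was not used. Expected counts were rounded. Genes with a total of at least 10 counts entered DESeq2 1.42.0 (Wald test, R 4.3.3) with median-of-ratios size factors and the replicate number as a block. They were called at q of 0.05 or lower. The block follows the study's methods, and deviations from group means correlated at 0.379, 0.303, 0.138 and 0.269 within the pairs of replicates 1 to 4 (across 11702 genes, which are not independent). Between libraries of different replicate number the correlations ran from -0.309 to 0.272. The highest of them, Control 3 with OGTi 4, exceeded that of pair 3, so these values do not set replicates 3 and 4 apart as pairs.

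Members and lists were chosen with earlier results of these data known. Named were all members and listed pathway genes that were called and averaged 100 normalized counts or more. ADRA1D, PLCB2 and RAMP2, below that mean, and some uncalled genes were named after their values were seen. Named as well were genes near 0 counts, some of the listed markers and the 5 closest profiles of EDN1 and of OXTR. The other markers entered only the counts and sums of their lists. 1 listed gene is not reported here. Positions, lengths and promoter windows come from GENCODE v44 and hg38. On simulated counts for this comparison (14790 genes), DESeq2 recovered 95 of 100 genes changed 2-fold and 100 of 100 changed 4-fold, with 10 false calls. Far fewer genes were changed there than were called in the data, none of them at low counts, and all genes had the same dispersion. The recovery therefore does not apply to counts as low or as scattered as those of NPR1 or of NPPB in OGTi. Replicates are of 1 cell line. Alternatives were edgeR 4.0.16, no block, TMM factors, other count filters, and leaving out each replicate pair.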

Additional observations from a re-analysis of the deposited data

How the results depend on the processing

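The same 5 members were called lower under all 10 alternatives, and 0 were called higher. Over all genes, 2670 to 3593 were called lower and 2416 to 3481 higher under these alternatives. The members were chosen with this contrast known, so nothing is read from their stable calls. Without the replicate block, the members called stayed at 5, listed pathway genes called were 22 (23 with it) and all genes called 6307 (6541 with it), and edgeR without the block called 5, 21 and 6041. With single replicate pairs left out, 20 to 21 pathway genes and 5127 to 5690 of all genes were called. Of the 23 pathway calls, 19 held under every alternative, and GNAQ, RAMP2, ADORA1 and PTGIR were lost under at least 1. The log2 fold change ranged from -3.61 to -3.26 for EDN1, from -6.69 to -4.79 for NPPB, from -2.19 to -2.13 for OXTR, from -1.65 to -1.37 for NPR3, from -0.81 to -0.73 for ADM and from 0.54 to 0.96 for NPR1. That of ECE1, which was not called, ranged from -0.09649 to 0.01382 with single pairs left out, the higher value, of opposite sign, being that without replicate 4. Depth limits EDNRA, EDNRB and NPR1, and NPPB in OGTi.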
